A study of Mus musculus with 6 samples.

Results

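The 8 genes described here encode the 7SK RNA, the proteins that bind it, and the kinase complex that it holds. They are Rn7sk, Larp7, Mepce, Hexim1, Hexim2, Cdk9, Ccnt1 and Ccnt2, taken by name from the 38355 genes in the deposited counts, and all 8 were found and had enough counts to be tested. Polyadenylated RNA was sequenced from whole cortical hemispheres of young and aged C57BL/6 mice, with 3 samples at 6 months and 3 at 16 months. These were animals of a standard inbred strain, with no transgene or treatment named, and both ages received the same housing, dissection and library preparation. The housing notes of the labels state 3 months for the younger animals, but the titles, tissue descriptions and age entries all give 6 months, and that age is used. The comparison addresses which transcripts differ between young and aged cortex. The set was chosen by the measured difference of Rn7sk between these same ages, so the age values of the 8 genes are descriptions without a P-value.

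Transcription by RNA polymerase II of most genes halts shortly after its start, and is released when the positive transcription elongation factor P-TEFb phosphorylates the polymerase and the factors that hold it. P-TEFb consists of the kinase Cdk9 and a cyclin, Ccnt1 or Ccnt2. Much of it is kept inactive in a particle built on the 7SK RNA, a noncoding RNA made by RNA polymerase III, in which Mepce caps the 5′ end of the RNA, Larp7 binds its 3′ end, and Hexim1 or Hexim2 blocks the kinase. In neurons the same step has been studied in the rapid induction of genes by activity.

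Rn7sk (ENSMUSG00000065037) lies on the minus strand of chromosome 9, at chr9:78175303-78175633 of GRCm38, and is annotated as a single exon of 331 bases with no overlapping gene. The start of the RNA is shown because it holds 3 copies of GATC, a sequence that forms part of the sites where Hexim proteins bind 7SK, and the end because it is the part that distinguishes Rn7sk from its copies. GATC is in capitals in the first, and the final run of 3 T in the second. The stretches lie at chr9:78175534-78175633 and chr9:78175303-78175392 on the minus strand.
Rn7sk bases 1 to 100: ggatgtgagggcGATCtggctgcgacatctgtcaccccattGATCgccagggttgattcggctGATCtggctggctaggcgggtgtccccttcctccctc
Rn7sk bases 242 to 331: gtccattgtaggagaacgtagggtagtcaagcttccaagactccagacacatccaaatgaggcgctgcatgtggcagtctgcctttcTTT

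The GATC copies begin at bases 13, 42 and 64, counted from the 5′ end. GATC reads the same on both strands, and 7.6% of 45645 annotated transcripts hold 3 or more copies in their first 331 bases, so the letters alone are not rare. The genome holds many incomplete copies of 7SK. In the annotation, 179 other small RNA genes resembled it, and 3 of these (Gm24447, Gm26315 and Gm24146) matched it with at least 97% identity over at least 100 bases. Gm24447 was identical to Rn7sk over bases 1 to 241, Gm26315 over bases 5 to 239, and Gm24146 matched 97.5% of its alignment to bases 1 to 237. The point where the likeness ends is shown for the closest pair, with bases that equal Rn7sk at the same position in capitals. The windows lie at chr9:78175373-78175412 on the minus strand, chr15:93234584-93234623 on the plus strand and chr2:7076154-7076193 on the minus strand.
Rn7sk bases 222 to 261: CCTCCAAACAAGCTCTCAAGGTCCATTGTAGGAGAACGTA
Gm24447 bases 222 to 261: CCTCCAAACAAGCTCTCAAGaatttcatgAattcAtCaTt
Gm26315 bases 222 to 261: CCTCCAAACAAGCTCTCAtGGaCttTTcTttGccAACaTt

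Of these 40 bases, 24 were the same in Gm24447 and 29 in Gm26315. A read of 100 bases could start at 232 places in Rn7sk, and at 142 of them the same 100 bases stood in another annotated transcript. From the window that starts at base 143 on, the remaining 90 occurred in Rn7sk alone among the annotated transcripts. The genome outside these transcripts was not searched. Reads that align to several places were not counted on genes, but a paired read can be placed by its mate, and the positions of the counted reads within Rn7sk were not analysed here. The 3 near-identical genes together received between 0 and 5 counts in a sample, so that nearly no reads were assigned to them.

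Rn7sk had 175, 130 and 128 counts in replicates 1, 2 and 3 at 6 months, and 382, 269 and 281 counts at 16 months. Scaled to counts per 1000000 (CPM), these were 3.73, 4.33 and 3.05 CPM at 6 months and 11.5, 8.58 and 8.23 CPM at 16 months. All samples at 16 months lay above all samples at 6 months, and replicate 1 at 16 months was the highest. The means were 3.71 ± 0.642 CPM (SD, n = 3) and 9.44 ± 1.81 CPM (SD, n = 3), which is 2.55 times as high at 16 months. The log2 fold change was 1.37 (standard error, SE, 0.16) in edgeR's quasi-likelihood fit across all genes. Counting error alone, as a 95% exact Poisson interval, put the highest sample at 6 months between 3.62 and 5.15 CPM and the lowest sample at 16 months between 7.29 and 9.25 CPM. These intervals do not meet, but Rn7sk was chosen on this difference, so this is a description and no support. The intervals also leave out every error other than counting, as amplified reads were not marked by molecule. Without replicate 1 of 16 months the log2 fold change was 1.20, and over all alternatives it lay between 1.20 and 1.47.

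**Figure D1:**
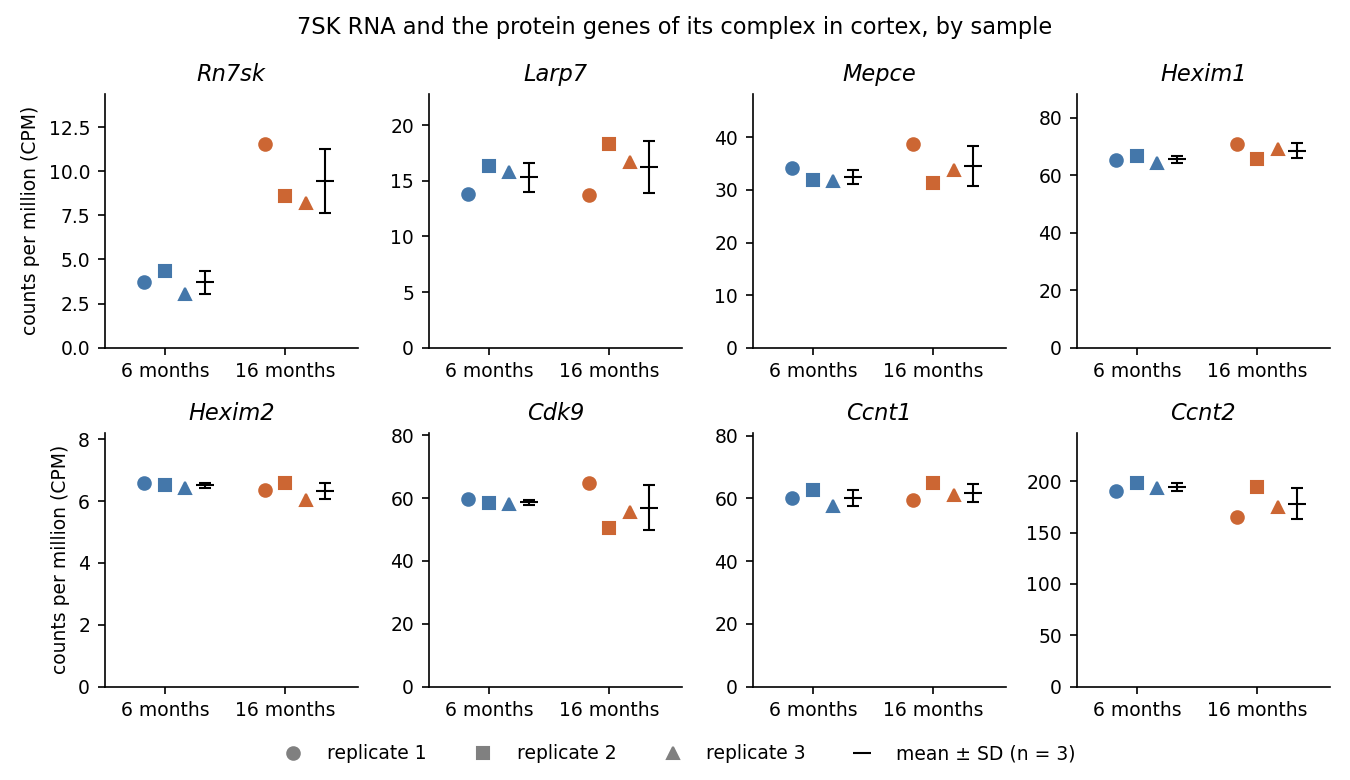
CPM (y axis, from 0) of the 8 genes in each sample at 6 and 16 months, with the mean and SD of 3 samples beside them. Rn7sk rose from 3.05 to 4.33 CPM in the young samples to 8.23 to 11.5 CPM in the aged samples, while the ages overlapped in the other 7 genes.

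Among the 8 genes, Rn7sk was the only one called at a Benjamini-Hochberg adjusted P under 0.05 (edgeR), and it was also the only one whose ages did not overlap. Over all 17120 tested genes, 1.67% were called, 0.783% as higher and 0.888% as lower at 16 months, the ages did not overlap in 23.7% (12.2% higher and 11.5% lower), and 17.4% had an unadjusted p under 0.05. Since Rn7sk was chosen for this difference, nothing is read from these shares. In bulk tissue a different number of cells of a type cannot be told apart from a different amount of RNA per cell.

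Larp7, which binds the 3′ end of 7SK and protects it from degradation, lies on chromosome 3 from 127536714 to 127553349. It had 13.8, 16.3 and 15.8 CPM at 6 months and 13.7, 18.3 and 16.7 CPM at 16 months, and the lowest value of each age was in replicate 1. Its log2 fold change was 0.09 (SE 0.11). Larp7 hosts 5 microRNA genes of the Mir302 and Mir367 cluster on its opposite strand, and reads of opposite strands cannot be told apart in these counts. Without replicate 1 of 16 months the log2 fold change was 0.20 and without replicate 2 it was −0.0036, so that its direction depended on single samples.

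Mepce, the enzyme that methylates the 5′ end of 7SK, lies on chromosome 5 from 137781906 to 137787655. Its level was 34.1, 31.8 and 31.8 CPM at 6 months and 38.7, 31.3 and 33.7 CPM at 16 months. Replicate 1 was the highest sample of both ages, and 1 of 3 aged samples fell below all young samples. The log2 fold change was 0.09 (SE 0.08), with a mean 6.20% higher at 16 months, and without replicate 1 of 16 months the log2 fold change was −0.0029.

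The kinase inhibitors of the particle are encoded side by side on the plus strand of chromosome 11, Hexim1 from 103116231 to 103119725 and Hexim2 from 103132429 to 103139876. Hexim1 is itself a gene whose transcription follows the release of P-TEFb, and has been used as a readout of it. It had 65.4, 66.7 and 64.5 CPM at 6 months and 70.8, 65.8 and 69.3 CPM at 16 months. In 2 of 3 aged samples Hexim1 lay above every young sample and in replicate 2 between them, with a log2 fold change of 0.07 (SE 0.05). Hexim2 had 6.57, 6.53 and 6.41 CPM at 6 months and 6.37, 6.57 and 6.03 CPM at 16 months. Its log2 fold change was −0.04 (SE 0.08), and the aged samples spanned the young ones.

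Hexim1 and Hexim2 fill the same place in the particle. Per length, Hexim1 made up 87.1%, 87.4% and 87.2% of the sum of both in the young samples and 88.3%, 87.2% and 88.6% in the aged samples. The means were 87.2% ± 0.141 (SD, n = 3) and 88.0% ± 0.770 (SD, n = 3), and the ages overlapped. These shares, like all values per length, depend on the annotated exons of each gene.

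Cdk9, the kinase of P-TEFb, lies on chromosome 2 from 32705784 to 32713076. Its level was 59.6, 58.3 and 58.0 CPM at 6 months and 64.7, 50.6 and 55.5 CPM at 16 months. The 3 young samples lay close together, while the aged samples lay on both sides of them. The log2 fold change was −0.04 (SE 0.08), and it changed sign without replicate 2 of 16 months (0.03).

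Ccnt1 and Ccnt2, the cyclins that pair with Cdk9, lie on chromosome 15 from 98538689 to 98570923 and on chromosome 1 from 127774164 to 127808061. Ccnt1 had 60.2, 62.7 and 57.6 CPM at 6 months and 59.4, 64.8 and 61.0 CPM at 16 months. Its log2 fold change was 0.04 (SE 0.06). Ccnt1 overlaps an antisense RNA gene, 9330020H09Rik, whose reads cannot be separated from its own without strand. Ccnt2 had 190, 198 and 194 CPM at 6 months and 166, 195 and 175 CPM at 16 months. In Ccnt2, 2 of 3 aged samples lay below every young sample, and replicate 2 lay among them. Its log2 fold change of −0.12 (SE 0.06) was the largest of the 7 protein genes in size. The call of Ccnt2 depended on the processing. After offsets for the GC content and length of genes it passed an adjusted P of 0.05 at a log2 fold change of −0.11, and without replicate 2 of 16 months at −0.19, so that 2 of the 8 genes were called in these settings. Over all tested genes 13.9% were called with the offsets and 12.7% without that sample, beside 1.67% otherwise, so that nothing particular to Ccnt2 is read from these calls.

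The cyclins had unlike shares. Per length, Ccnt1 made up 29.9%, 29.9% and 28.6% of the sum of Ccnt1 and Ccnt2 at 6 months and 32.6%, 31.0% and 32.0% at 16 months. Every aged sample lay above every young sample in this share, with means of 29.5% ± 0.757 and 31.9% ± 0.817 (SD, n = 3 each). With the longest transcript of each gene in place of all its exons, the means were 24.2% and 26.4%. No test was made of this share, which uses the contrast on which the genes were chosen. In CPM, the ages did not overlap in 23.7% of all tested genes, so nothing particular is read from the separation.

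**Figure D2:**
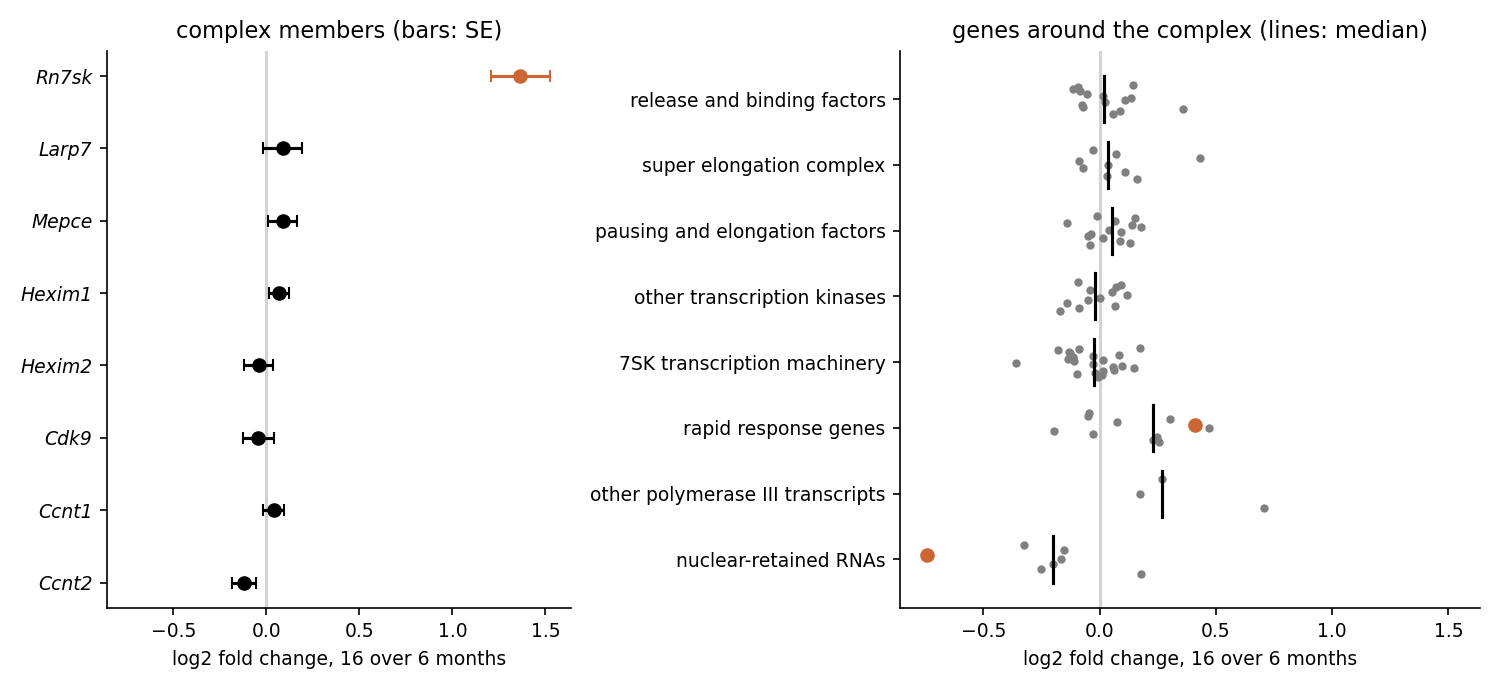
Left, the log2 fold change (16 over 6 months, x axis) of the 8 genes with its standard error. Right, the same for the tested genes of 8 lists around the complex, 1 point per gene, with the median as a line and called genes in orange. Rn7sk stood at 1.37 and the 7 protein genes between −0.12 and 0.09, and Hspa1b and Neat1 were the called genes of the lists.

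The median log2 fold change of the 7 protein genes was 0.04, beside 0.0014 over all tested genes, and it was −0.0029 without replicate 1 of 16 months. Of the 7 values, 4 were positive, beside 50.3% of all tested genes. In the same samples the RNA that these proteins bind had 5.70, 6.49 and 4.73 counts per 100 counts of Hexim1 at 6 months and 16.3, 13.1 and 11.9 at 16 months. The ratio was thus higher in each aged sample than in each young sample, and it does not depend on the scaling of library sizes. Rn7sk was chosen on this difference and Hexim1 differed little between the ages. The ratio therefore restates the difference of Rn7sk and is no support.

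Levels can be compared between genes only per length, as CPM per 1000 bases of exon. On this scale the order at 6 months was Hexim1 (18.8 ± 0.327), Ccnt2 (15.7 ± 0.315), Cdk9 (12.7 ± 0.188), Rn7sk (11.2 ± 1.94), Mepce (9.16 ± 0.376), Ccnt1 (6.57 ± 0.277), Larp7 (6.48 ± 0.554) and Hexim2 (2.74 ± 0.0348; SD, n = 3 each). Cdk9 and Rn7sk, Rn7sk and Mepce, and Ccnt1 and Larp7 overlapped between samples, and the other neighbors did not. At 16 months Rn7sk was first at 28.5 ± 5.47 CPM per 1000 bases (SD, n = 3), with samples from 24.9 to 34.8, above Hexim1 at 19.6 ± 0.742. The 7 protein genes followed in the order Hexim1, Ccnt2, Cdk9, Mepce, Larp7, Ccnt1 and Hexim2. Ccnt2 and Cdk9, and Larp7 and Ccnt1, overlapped at that age. With the longest transcript as the length, Ccnt2 was first at 6 months at 25.4 CPM per 1000 bases, and second to Rn7sk at 16 months. The level of Rn7sk counts only reads that align to a single place, out of a transcript in which 142 of 232 single windows occur elsewhere, so its place in this order is uncertain.

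The libraries were made from polyadenylated RNA, and 7SK carries no poly(A) tail as a rule. Genes annotated for RNAs of the same kind were therefore placed beside it. Whether the reads counted on them came from RNA without a tail, or from longer transcripts that overlap them, was not tested. The annotation has 3617 other genes for small nuclear, nucleolar, ribosomal and similar structural RNAs in the counts, of which 1421 had a count and 101 were tested. None of the 101 was called (0 by edgeR and 0 by DESeq2, Benjamini-Hochberg adjustment), and 13 had an unadjusted p under 0.05 in edgeR, where 17.4% of all tested genes had one. DESeq2 called 3.03% of all genes it tested. The median log2 fold change of the 101 was −0.12 with 36 positive. After offsets for the GC content and length of genes it was 0.0085 with 52 positive and 4 called, where 13.9% of all tested genes were called. Without a filter on low counts 4 were called, and without replicates 1 and 2 of 16 months 2 and 5, where 2.35%, 5.73% and 12.7% of all tested genes were called. Rn7sk ranked 3 among the 3618 genes by mean CPM at 6 months and 1 at 16 months, which takes no account of length. Neither rank holds per length. At 16 months Rn7sk (28.5 per length) lay below Snord91a (47.9), Snora43 (43.8) and Gm22771 (36.3), and above Gm24601 (23.4) and Gm25082 (9.57). At 6 months Rn7sk (11.2 per length) lay below Snora43 (51.7), Snord91a (47.8), Gm22771 (36.7) and Gm24601 (24.9), and close to Gm25082 (11.1). As a percentage of the summed CPM of the other structural RNAs, Rn7sk was 2.84%, 3.12% and 2.40% at 6 months and 9.91%, 6.58% and 5.63% at 16 months.

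The 5 most abundant of the other structural RNAs by CPM were Snora43, Snord91a, Gm24601, Gm22771 and Gm25082. Their log2 fold changes were, in this order, −0.24, 0.01, −0.08, −0.0078 and −0.22. Snora43 and Snord91a belong to the small nucleolar RNAs, which guide the modification of ribosomal RNA. Gm25082, the most abundant of the genes that resemble 7SK, had 2.67, 2.77 and 3.08 CPM at 6 months and 2.32, 2.39 and 2.61 CPM at 16 months. All genes that resemble 7SK summed to at most 7.08 CPM in the young samples, which lay close together, and to 6.15, 6.86 and 9.43 CPM in the aged samples, which lay on both sides of them. Transcripts of the replication-dependent histone genes end in a stem-loop and not in a tail as a rule, but whether those counted here had a tail was not tested. Their log2 fold changes were positive in 15 of 15 tested genes, with a median of 0.41, and 8 had an unadjusted p under 0.05. Over all tested genes, 50.3% were positive, 17.4% had such a p and 1.67% were called. Hist1h1c (log2 fold change 0.63, adjusted P = 0.00156) and Hist1h2be (0.50, adjusted P = 0.0272; edgeR, Benjamini-Hochberg adjustment) were called higher. The summed CPM of the histone cluster genes went from 82.6 to 87.4 at 6 months to 102 to 106 at 16 months. Hist1h2be overlaps Hist1h1e in the annotation, and its call was lost without any 1 of the young samples and without replicate 3 of 16 months. Without replicate 2 of 16 months 13 of the 15 were positive. Whether the tail selection bears on Rn7sk was not tested.

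**Figure D3:**
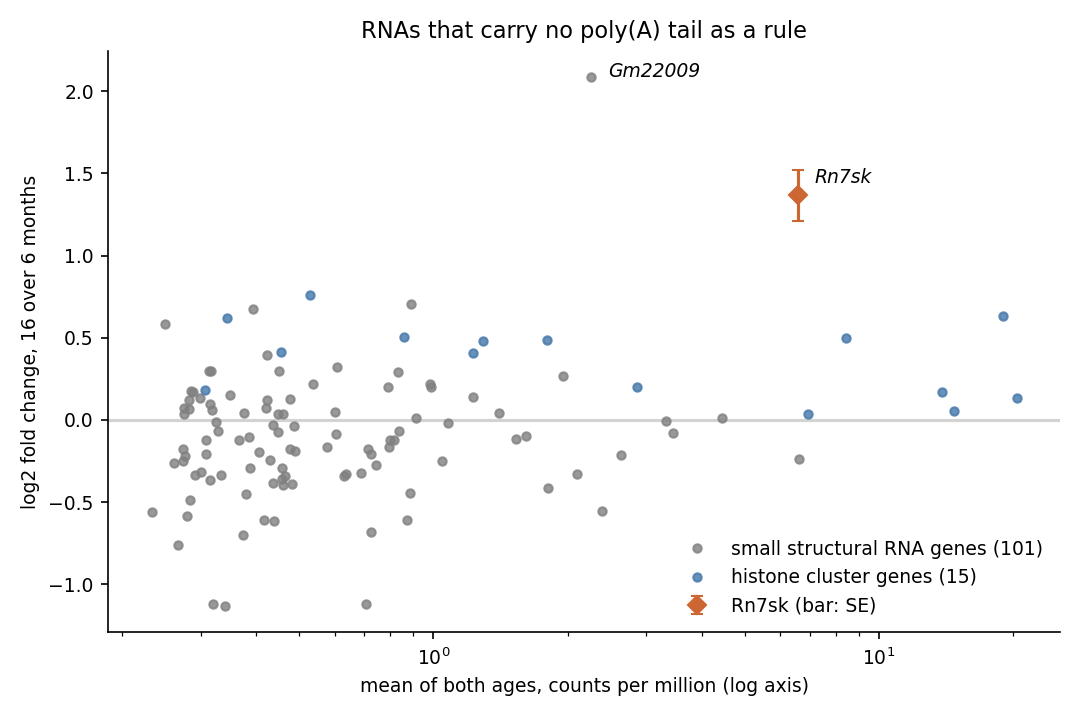
Log2 fold change (16 over 6 months, y axis) against the mean level of both ages in CPM (log axis) for 101 structural RNA genes, 15 histone cluster genes and Rn7sk with its standard error. Rn7sk at 1.37 stood above all others except Gm22009, and the 15 histone genes lay above 0.

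Other RNAs made by RNA polymerase III were few in these libraries. Of 9 such genes on the list, 3 were tested, and Rmrp, the RNA of RNase MRP, had a log2 fold change of 0.71 (adjusted P = 0.151), Rpph1, the RNA of RNase P, of 0.27 (0.506) and Rny1, a Y RNA, of 0.17 (0.866; edgeR, Benjamini-Hochberg adjustment). None was called by edgeR or DESeq2, and 1 (Rmrp) had an unadjusted p under 0.05, beside 17.4% of all tested genes. Rmrp was called after offsets for the GC content and length of genes, where 13.9% of all tested genes were called. Their counts were low, with 0.690 ± 0.182 CPM for Rmrp at 6 months and 1.09 ± 0.150 CPM at 16 months (SD, n = 3 each). Rn7s6 was listed at 0 in all samples.

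The proteins that transcribe Rn7sk gave no called gene. Among 22 subunits of the snRNA activating complex, of its partners and of RNA polymerase III, 0 were called by edgeR and 0 by DESeq2. Of these 22, 4 had an unadjusted p under 0.05, beside 17.4% of all tested genes, and the median log2 fold change was −0.02. The 3 with the highest level per length were Maf1, a repressor of the polymerase (−0.02), and its subunits Polr3k (−0.14) and Crcp (−0.10). Polr3g, named after its values were seen, had the largest value of the list, with 8.43, 9.07 and 8.96 CPM at 6 months and 5.73, 7.94 and 6.94 CPM at 16 months. Its log2 fold change was −0.36 (adjusted P = 0.139, edgeR, Benjamini-Hochberg adjustment), and it was called without a filter on low counts, with a replicate block, with offsets for the GC content and length of genes with and without the block, and without replicate 2 of 16 months. Of all tested genes, 2.35% were called without the filter, 4.57% with the block, 18.2% with block and offsets, 13.9% with the offsets alone and 12.7% without that sample.

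Genes next to Rn7sk on the chromosome were not called. The noncoding gene C920006O11Rik, 280 bases from the 5′ end of Rn7sk, had a log2 fold change of −0.10 (SE 0.18). Ick, 3195 bases from its 3′ end, had 0.09, and the next genes Fbxo9 and Gsta4 had 0.08 and −0.07. The level of C920006O11Rik, 2.36 ± 0.458 CPM at 6 months and 2.25 ± 0.444 CPM at 16 months (SD, n = 3 each), overlapped between the ages.

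The genes with which the particle exchanges P-TEFb were examined next. Of 14 factors that release P-TEFb from 7SK or bind 7SK outside the particle, 0 were called by edgeR and 0 by DESeq2. Of these 14, 2 had an unadjusted p under 0.05, beside 17.4% of all tested genes, and the median log2 fold change was 0.02. The most abundant per length were the RNA-binding proteins Hnrnpa2b1 (−0.08) and Ssb (−0.11) and the phosphatase subunit Ppp1ca (0.01). Hmga1, a 7SK-binding chromatin protein, had 0.36 (adjusted P = 0.126, edgeR, Benjamini-Hochberg adjustment). It was named after its values were seen, and was called without a filter on low counts, with the replicate block, with the offsets with and without the block, and without replicate 2 of 16 months, as Polr3g was. Of 9 subunits of the super elongation complex, in which active P-TEFb travels with the polymerase, 0 were called by edgeR and 0 by DESeq2, 1 had an unadjusted p under 0.05, and the median was 0.04. Aff4, its scaffold, had 0.03, Mllt1 0.07 and Ell 0.04.

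The substrates and companions of Cdk9 showed small values as well. Of 14 pausing and elongation factors 0 were called by edgeR and 0 by DESeq2, and the median was 0.05. Of these 14, 5 had an unadjusted p under 0.05, beside 17.4% of all tested genes. Supt6 had a log2 fold change of 0.15, Supt5, a subunit of the factor that Cdk9 phosphorylates, of 0.06, and its partner Supt4a of −0.14. Of 12 genes of other transcription kinases and their cyclins 0 were called by edgeR and 0 by DESeq2, 0 had an unadjusted p under 0.05, and the median was −0.02, or 0.02 after the offsets. Ccnl2 had −0.05, Cdk7, the kinase of the initiation factor TFIIH, 0.07, and Cdk19 −0.04.

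Among 11 rapidly induced genes, whose transcription depends on the release of paused polymerase, 1 was called, beside 1.67% of all tested genes. Of the 11, 7 had an unadjusted p under 0.05 (17.4% of all tested genes had one), and the median was 0.23, with 7 positive. Hspa1b, an inducible heat shock protein gene, rose from 6.22 ± 0.416 to 8.24 ± 0.468 CPM (SD, n = 3 each), by 0.41 on the log2 scale (adjusted P = 0.0436, edgeR, Benjamini-Hochberg adjustment). It shares nearly all of its coding sequence with its neighbor Hspa1a, so reads may be divided between them, and Hspa1a had 0.47 (adjusted P = 0.0766, edgeR, Benjamini-Hochberg adjustment). The call of Hspa1b was lost with upper quartile scaling, without any 1 of the young samples and without replicate 3 of 16 months. Among 7 tested long noncoding RNAs that remain in the nucleus, Neat1, the scaffold of paraspeckles, fell by 0.74 on the log2 scale (adjusted P = 0.000238, edgeR, Benjamini-Hochberg adjustment). Of the 7, 5 had an unadjusted p under 0.05, beside 17.4% of all tested genes. Of their values, 6 of 7 were negative with a median of −0.20, while 50.3% of all tested genes were positive.

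The spread between samples of one age was compared between the ages. The SD of log2 CPM of Cdk9 was 0.02 at 6 months and 0.18 at 16 months, and that of Ccnt2 0.03 and 0.12. Over all tested genes the median SD was 0.06 and 0.13. In Rn7sk it was 0.25 and 0.26. Within the aged group, deviations from the mean went with the share of G and C bases in a gene. In replicate 1 the genes of low GC content, Ccnt2 (42.1%), Ccnt1 (44.8%) and Larp7 (46.3%), were at −0.10, −0.05 and −0.23, and those of higher GC content, Cdk9 (50.5%), Rn7sk (58.0%) and Mepce (59.7%), at 0.19, 0.30 and 0.17. The 3 deviations of a gene sum to 0, so replicates 1 and 2 are not independent of each other. In replicate 2 the same 6 genes were at 0.13, 0.07 and 0.18 and at −0.16, −0.12 and −0.14. Hexim1 (49.2%) followed with 0.05 and −0.06, and Hexim2 (54.7%) did not, with 0.01 and 0.06. Across 16904 genes the deviation and GC content correlated with r = 0.588 in replicate 1 and −0.582 in replicate 2 at 16 months, and with r between −0.130 and 0.160 in the other 4 samples, where genes share library and base composition and are not independent. After offsets for the GC content and length of genes the log2 fold change of Rn7sk was 1.45, beside 1.37 without, and the part of GC content in the other 7 values was not tested further.

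**Figure D4:**
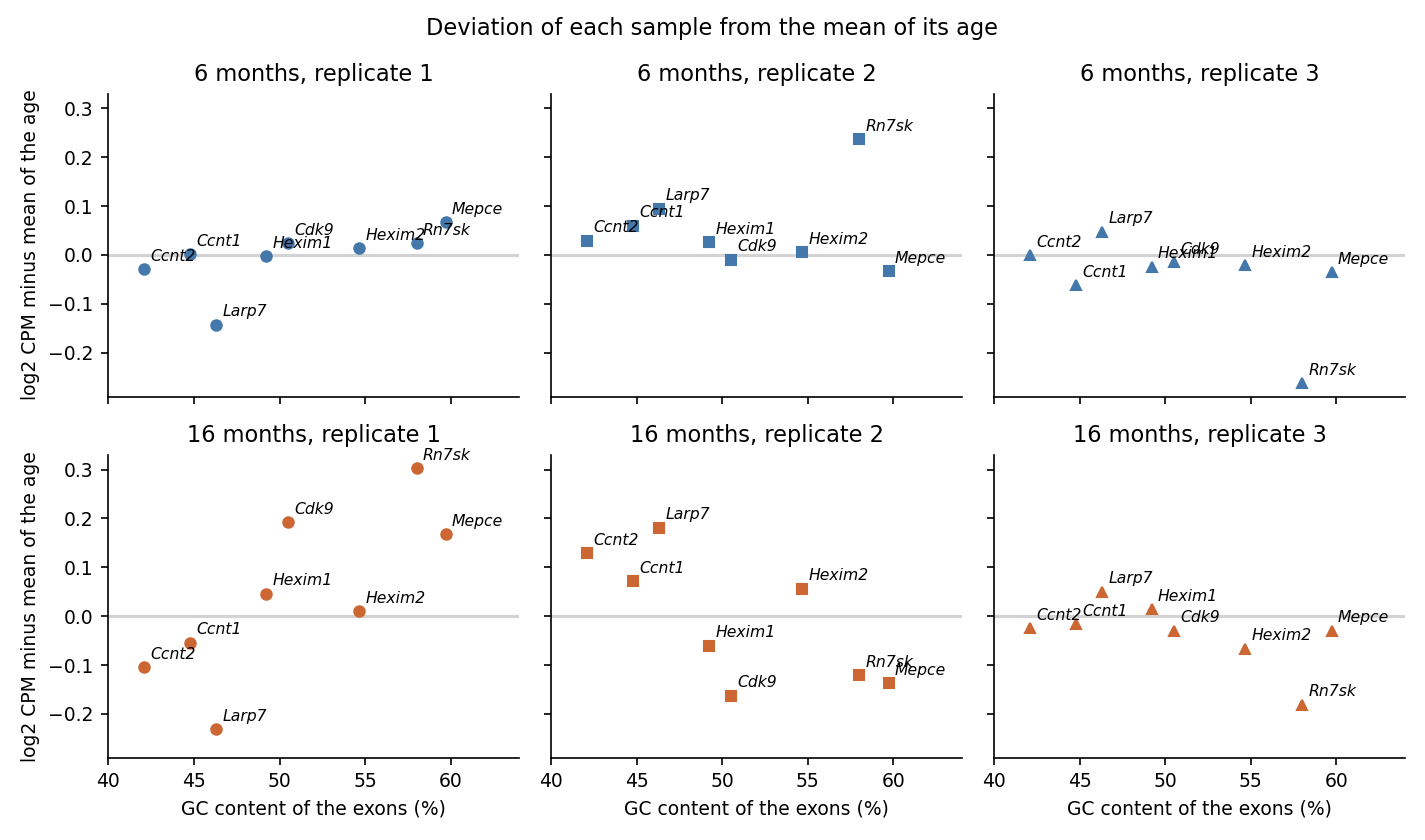
Deviation of log2 CPM from the mean of the age (y axis) against GC content of the exons (x axis, percent) for the 8 genes, 1 panel per sample. At 16 months the values rose with GC content in replicate 1, from −0.23 at Larp7 to 0.30 at Rn7sk, and fell with it in replicate 2.

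The 10 genes most like Rn7sk were those with the smallest root mean square difference in log2 CPM over the 6 samples, after centering each gene on its own mean. Of these, 9 are described, which were Dsp (0.20), Plin4 (0.21), Colq (0.21), Lct (0.22), Cldn19 (0.24), Ttr (0.25), Dgkk (0.28), Gm26747 (0.29) and Fam83d (0.29). All 9 were higher in every aged sample than in every young sample, a pattern that their selection favors, and their log2 fold changes lay between 0.85 and 1.39. Cldn19, Dgkk and Gm26747 were not called (adjusted P = 0.0785, 0.110 and 0.0740, edgeR, Benjamini-Hochberg adjustment). These genes and Colq had low counts, at most 60 in any sample. Dsp, which encodes desmoplakin of cell junctions, went from 3.52 ± 0.149 to 8.43 ± 1.06 CPM (SD, n = 3 each). Plin4, which coats lipid droplets, went from 5.59 ± 0.138 to 12.1 ± 1.31 CPM (SD, n = 3 each). In 8 of the 9, replicate 1 was highest among the aged samples, as in Rn7sk, and the exception was Ttr. The selection compares all 6 samples, so it favors this pattern as well.

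**Figure D5:**
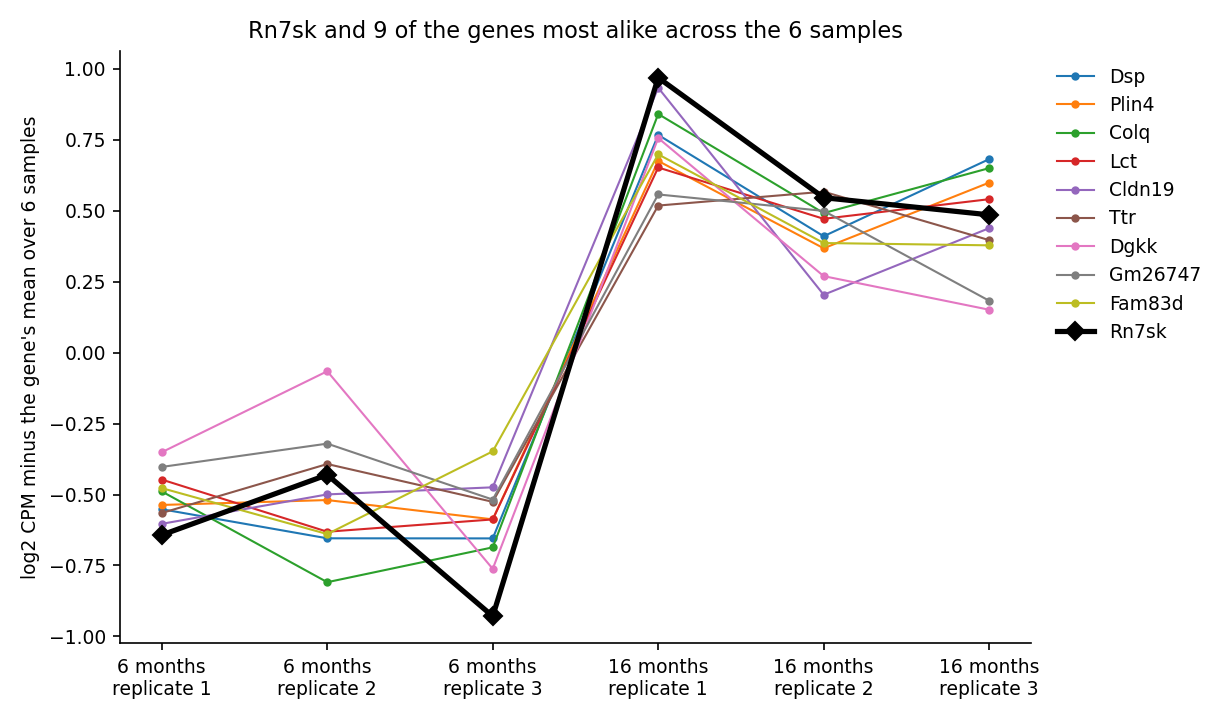
Log2 CPM of Rn7sk (black) and of 9 of the 10 genes most like it, each centered on its own mean (y axis), in the 6 samples (x axis; lines join the values of a gene and imply no order). Rn7sk had the widest range, from −0.93 in replicate 3 at 6 months to 0.97 in replicate 1 at 16 months.

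Dsp and Lct are on a list of dentate gyrus markers, and Ttr is on a list of choroid plexus markers. The sums of the dentate gyrus, thalamus, choroid plexus and red blood cell lists were higher in the aged samples, while the sums of the striatum list overlapped. Over all tested genes, 50.3% were positive and 0.783% were called higher. Cortical markers were present, with 8 of 8 excitatory neuron genes tested, 0 of them called, and sums between 1502 and 1596 CPM at 6 months and 1525 and 1813 CPM at 16 months. Of the dentate gyrus list, 5 of 5 genes were positive and Dsp, Lct and C1ql2 were called higher, with sums of 49.7 to 52.5 CPM at 6 months and 70.4 to 74.5 CPM at 16 months. Of the thalamus list, 6 of 6 were positive and 4 called higher (Shox2, Prkcd, Tcf7l2 and Calb2), with sums of 72.0 to 75.8 and 95.1 to 103 CPM. Of the 5 tested choroid plexus genes, 4 were positive and Ttr was called higher, with list sums of 16.4 to 17.5 and 24.9 to 27.9 CPM. Of the red blood cell list, 5 of 5 were positive and Hbb-bs and Hbb-bt were called higher, with sums of 27.3 to 30.8 and 44.9 to 50.3 CPM. Of the striatum list, 5 of 5 were positive and 0 were called, with sums of 253 to 259 and 252 to 294 CPM. No marker of these lists was at 0 in all samples. Their part in the value of Rn7sk was not tested.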

How the data were processed

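Whole cortical hemispheres of C57BL/6 mice of 6 and 16 months (n = 3 samples each) were sequenced as paired reads after poly(A) selection with an unstranded TruSeq kit. The deposited values are unnormalized counts of reads per gene. According to the study's methods, adaptors were removed with fastq-mcf, alignment to mm10 used STAR with 2 passes, and the authors obtained counts with HTSeq on Ensembl genes. The submitters' processing notes instead name STAR 2.3.0e, CASAVA 1.8.2 and featureCounts 1.5.0-p1, and which counter made the files is not settled here. The annotation release and the strand setting are not given in the sources used here. Per sample, 22.0% to 27.7% of the uniquely aligned reads lay on no gene, and 43.4 to 51.4 alignments per 100 counted reads were not unique.

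Total counts on genes were between 29797253 and 46519280, so that 3 counts equal 0.0645 to 0.101 CPM. Of 38355 genes, 36602 were matched by identifier to GENCODE vM21 (GRCm38), which gave names, positions, GC content, exon lengths and the printed sequences. Counts were fitted with edgeR 4.0.16 in R 4.3.3 (TMM, filterByExpr leaving 17120 genes, quasi-likelihood test without covariates, Benjamini-Hochberg adjustment at 0.05), which called 286 genes, 134 of them higher at 16 months. The log2 CPM used a prior count of 2. Copies of Rn7sk were searched with blastn 2.17.0. The fit was checked on simulated counts with known changes. These had the same dispersion for all genes and no trend with GC content, so the check does not cover such trends. No replicate pair of one age agreed within sampling noise (chi-square over its degrees of freedom at least 2.72). The study counts 3 brains per age, and P-values measure the spread between these samples only.

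The members and lists were chosen with earlier results of these data known. Named genes are the 8 members, the near-identical copies and chromosomal neighbors of Rn7sk, the called genes of each list and otherwise its 3 most abundant per length, the 10 genes most like Rn7sk, and the 5 most abundant structural RNAs. Of the genes most like Rn7sk, 1 is not reported here. Other names are marked as chosen after their values were seen. The marker lists not described in the report were GABAergic neurons (median log2 fold change 0.11, 0 of 6 called), astrocytes (0.20, Gfap lower), oligodendrocytes (0.03, 0 of 5), microglia (0.04, Aif1 lower) and endothelial cells (−0.10, 0 of 4). Alternatives were RLE or upper quartile scaling, no filter or a minimum of 10 counts per sample, a robust fit, DESeq2 1.42.0, a replicate block, offsets for GC content and gene length with and without it, each sample left out, and the longest transcript as length. Figures were drawn with matplotlib 3.10.9.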

Additional observations from a re-analysis of the deposited data

How the results depend on the processing

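The log2 fold change of Rn7sk, on which the set was chosen, lay between 1.20 and 1.47 over 15 alternatives, which is a description and no support. Of the 8 genes, 1 was called in the main fit, and 2 (Rn7sk and Ccnt2) with offsets for GC content and length and 2 with these offsets and the replicate block. Leaving out 1 sample gave 1 to 2, and it was 2 without replicate 2 of 16 months. Over all genes, 286 were called in the main fit, 648 without a filter on low counts, 471 with DESeq2's Wald test, 2377 with the offsets, and between 48 and 2211 with 1 sample left out (55, 57 and 48 without replicates 1, 2 and 3 of 6 months, and 995, 2211 and 58 without those of 16 months). Of the 8 pathway lists, 2 genes were called in the main fit, 9 without a filter, 6 with DESeq2, 19 with the offsets, and 1 to 17 with 1 sample left out (1 without any of the 6 months samples or replicate 3 of 16 months, 9 without replicate 1 and 17 without replicate 2 of 16 months). The median log2 fold change of the structural RNAs was 0.0085 with the offsets, 0.0090 with the offsets and the block, −0.12 in the main fit and −0.17 to −0.09 with 1 sample left out, so that its direction depended on the offsets. The median of the histone cluster genes was 0.50 with the offsets, 0.49 with the offsets and the block, and 0.34 to 0.49 with 1 sample left out. With the longest transcript, the share of Hexim1 was 84.6% at 6 and 85.6% at 16 months, and that of Ccnt1 24.2% and 26.4%. The cause of these shifts was not tested. Calls were followed through the alternatives for Rn7sk, Hspa1b, Neat1, Hist1h1c, Hist1h2be and the called genes most like Rn7sk. Of these, Hspa1b lost its call in 5 alternatives and Hist1h2be, Colq and Fam83d in 4 each, and none changed direction. The calls of marker genes other than Dsp, Lct and Ttr were not followed.

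Both ages share replicate numbers. After centering each age, samples 1, 2 and 3 correlated across genes with the sample of like number at r = 0.180, 0.0958 and 0.0351. Samples of unlike number correlated at r between −0.133 and 0.0379. Replicate 3 of 16 months correlated best with replicate 2 of 6 months (0.0379), close to the value for its like number. These values do not settle whether the numbers pair the samples, and the main fit was made without a block. With the replicate block 783 genes were called (383 higher), 9 of them in the pathway lists, and 3124 with the block and the offsets, 24 of them in the lists. The block alone changed no call among the 8 genes. Depth limits the comparison with structural RNAs, since 3 counts equal 0.101 CPM in the smallest library and 2196 of the 3617 genes had 0 counts in all samples.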

Other observations

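Gm22009, a small Cajal body RNA gene, had 36, 36 and 30 counts in the samples of 6 months and 31, 47 and 288 counts in those of 16 months, so that 1 sample, replicate 3, carried its log2 fold change of 2.08 (adjusted P = 0.197, edgeR, Benjamini-Hochberg adjustment). That sample was the lowest of the 3 aged samples for Rn7sk. Gm25184, an annotated small nuclear RNA, had 24, 13 and 19 counts at 6 months and 9, 6 and 6 counts at 16 months, with a log2 fold change of −1.13 (adjusted P = 0.0924, edgeR with Benjamini-Hochberg adjustment). Both were named after their values were seen.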
